A study of Homo sapiens with 9 samples.

Results

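STC1 and STC2 encode the human stanniocalcins, and they were 2 of the 60966 genes in the deposited tables. They were found as the rows whose gene name was STC1 or STC2, which gave 7 of 244443 transcript rows, of which 2 belonged to STC1 and 5 to STC2. The pair was selected on measured values. STC1 was picked for its rise with both FIBP siRNAs and its difference between them, so its differences between groups are given as a description with no test. STC2 was included as the other member of the family.

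RNA sequencing was performed in H1299, an established line of human non-small cell lung cancer cells, after siRNA transfection. The Scramble group received a control siRNA, and the Si-FIBP#1 and Si-FIBP#2 groups received 1 of 2 different siRNAs against FIBP, a gene named for the binding of its protein to an acidic fibroblast growth factor. Each group held 3 samples, with no other agent or allele named in the labels, and the RNA was selected by its poly(A) tail. All groups came from this single line, the labels did not say whether the samples of a group were separate cultures, and p-values then measure only the spread between these samples.

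Stanniocalcins are secreted glycoproteins, named for the gland of bony fish in which the first of them was found to lower blood calcium. In mammals they act mainly in the tissue that makes them. Both proteins bind and inhibit the pappalysins PAPP-A and PAPP-A2, the proteases that cut insulin-like growth factor (IGF) binding proteins and free IGF. STC1 and STC2 are both known to rise in low oxygen, and STC2 is a known target of ATF4 in the unfolded protein response.

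FIBP itself was lowered in all samples of both siRNA groups. Its mean was 81.9 ± 5.71 FPKM (fragments per kilobase of transcript, scaled to the mapped fragments of a sample; SD, n = 3) in Scramble, 6.52 ± 1.93 FPKM in Si-FIBP#1 cells and 7.09 ± 1.15 FPKM in Si-FIBP#2 cells. The depth, estimated from the size of 1 fragment in low FPKM values, was 20200000 to 24100000 fragments per sample. The epithelial keratin markers KRT7, KRT8 and KRT18 were present in every sample, while KRT19 stayed below 1 FPKM. The summed level of these 4 keratins was 584 to 596 FPKM in Scramble, 272 to 310 with Si-FIBP#1 and 215 to 290 in Si-FIBP#2 cells. The summed level of 10 markers of other cell types was 31.8 to 33.7, 39.6 to 42.5 and 52.6 to 69.1 FPKM in the same order. CD68 was the single one of them at 1 FPKM or more in Scramble, COL1A1 joined it with Si-FIBP#1, and ALB, COL1A1 and DCN joined it with Si-FIBP#2. The sum of these 10 markers rose from group to group without overlap, as STC1 did. In Scramble 9 of the 10 stayed below 1 FPKM in all samples, so CD68 made up most of that sum. All samples were of 1 cell line, and whether other cells were present was not tested. The keratin sum was lower with both siRNAs and overlapped between them. The part of either sum in the STC1 values was not tested. In these bulk samples, a change in the share of cells with a transcript and a change in RNA per cell cannot be told apart.

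STC1 was above the median of tested genes in control cells, at 27.5 against 10.03 FPKM, and was higher again in the depleted cells. The gene (ENSG00000159167) spans positions 23841915 to 23854807 of chromosome 8 in GRCh38, on the minus strand, by the GENCODE 29 annotation. In Scramble its gene sum over transcripts was 29.36, 26.09 and 27.17 FPKM. With Si-FIBP#1 it was 92.65, 135.64 and 129.61 FPKM, and with Si-FIBP#2 it was 269.53, 285.42 and 311.63 FPKM. The 3 groups did not overlap, and every Si-FIBP#2 sample lay above every Si-FIBP#1 sample. The group means were 27.5 ± 1.67, 119 ± 23.3 and 289 ± 21.3 FPKM (SD, n = 3). The ratios of the means were 4.33 for Si-FIBP#1 over Scramble, 10.5 for Si-FIBP#2 over Scramble and 2.42 for Si-FIBP#2 over Si-FIBP#1. On the log2(FPKM + 1) scale the differences were 2.06, 3.34 and 1.29.

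**Figure D1:**
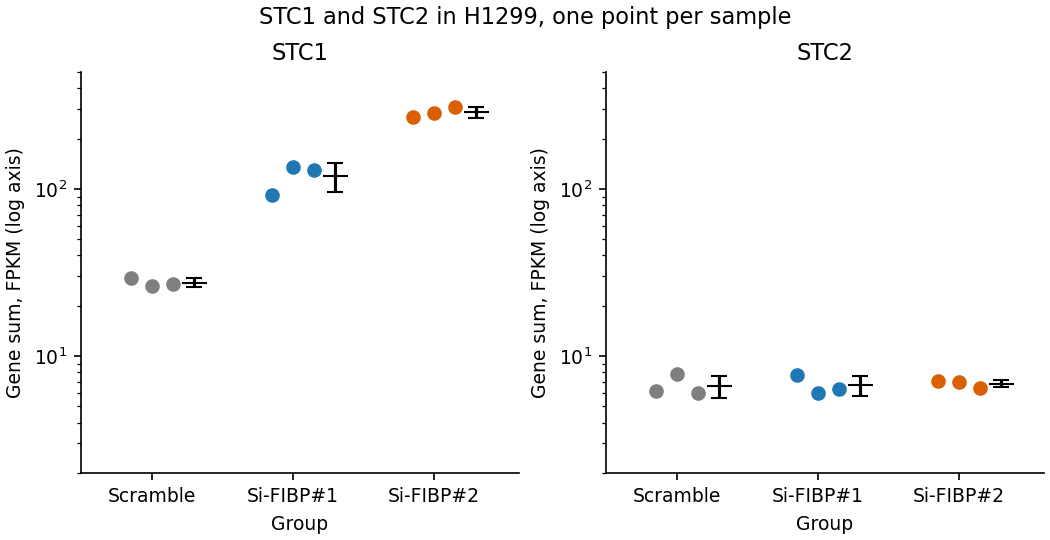
Gene sums of STC1 (left) and STC2 (right) in FPKM on a log axis, with 1 point per sample, and the mean and SD of each group beside its points (n = 3). STC1 forms 3 separate groups, with means of 27.5, 119 and 289 FPKM, while the STC2 groups overlap, with means of 6.63, 6.70 and 6.82 FPKM.

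The spread of STC1 was widest with Si-FIBP#1, where the coefficient of variation was 19.5%, against 6.05% in Scramble and 7.36% in Si-FIBP#2 cells. Replicate 1 was the lowest of the Si-FIBP#1 samples. Without it, the difference between Si-FIBP#1 and Scramble was 2.23 and the difference between the siRNAs was 1.12 on the log2 scale. FIBP itself differed by 0.13 between the siRNAs on the log2 scale, with a 95% interval of -0.28 to 0.54.

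By mean FPKM, STC1 ranked 3734th of the 14985 genes tested in Scramble, 807th with Si-FIBP#1 and 319th in Si-FIBP#2 cells. It therefore went from the top 24.9% to the top 5.39% and then to the top 2.13% of tested genes. The STC1 sum rested on an estimated 2012 to 2269 fragments per Scramble sample, 8012 to 11390 per Si-FIBP#1 sample and 20086 to 22896 per Si-FIBP#2 sample.

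A gene was called at an adjusted p below 0.05 and a difference of more than 1 on the log2(FPKM + 1) scale, written here as 2-fold. A ratio of mean FPKM over 2 can therefore miss the call. Both siRNAs were compared with the same Scramble samples. Against Scramble, 2.55% of all tested genes were called higher in Si-FIBP#1 cells and 3.11% were called lower. For Si-FIBP#2 these shares were 2.92% and 2.13%. By the adjusted p alone, 27.8% were higher and 19.9% lower in Si-FIBP#1 cells, while 31.1% were higher and 17.7% lower in Si-FIBP#2 cells. Between the siRNAs, 0.267% were called higher and 0.294% lower with Si-FIBP#2, or 9.58% and 5.8% by the adjusted p alone. The median log2 difference of all tested genes was 0.07 with Si-FIBP#1 and 0.11 in Si-FIBP#2 cells, and it became -0.02 with each when samples were scaled by their median ratio.

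The place of STC1 among all genes depended on the measure. By the mean of both differences on the log2(FPKM + 1) scale STC1 stood at 2.70, below AC125257.2 at 3.46 and AC010149.1 at 3.06 and above GAP43 at 2.32. By the ratio of means, which adds nothing to low values, GAP43 stood at 8.74 and 10.6 and PLAC1 at 11.8 and 10.2, against 4.33 and 10.5 for STC1. In order of the smaller of the 2 rises, STC1 was 6th of 14985 tested genes. The 5 genes before it were AC125257.2, AC010149.1, GAP43, H2AC19 and H2AC6, all named after their values were seen. AC125257.2 was at 0, 0 and 80.06 FPKM in Scramble, and AC010149.1 was listed at 0 in 1 sample of each depleted group, so their means rested on samples that lay far apart. GAP43 and PLAC1 were below 1 FPKM in every Scramble sample and passed the filter only through the depleted cells. The next genes in this order were LINC00886, at 2.00, RPL32P29, at 2.00, and PLAC1, at 1.93. RPL32P29 is a ribosomal protein pseudogene whose reads can be shared with its parent gene, so its value is uncertain. LINC00886, RPL32P29, AC125257.2 and AC010149.1 were also below 1 FPKM in some or all Scramble samples, so they too needed the depleted cells to pass the filter. With annotated transcripts alone PLAC1 differed by 1.18 and 0.28. By contrast taken alone, STC1 ranked 14th for the rise with Si-FIBP#1, 2nd for the rise with Si-FIBP#2 and 35th for the excess of Si-FIBP#2 over Si-FIBP#1.

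Nearly all of STC1 came from 1 transcript. ENST00000290271, the 4-exon protein-coding transcript that spans the whole gene, held 25.94 to 29.05 FPKM in Scramble, 92.65 to 134.69 FPKM in Si-FIBP#1 cells and 268.52 to 311.03 FPKM in Si-FIBP#2 cells. The shorter protein-coding ENST00000524323, also of 4 exons, was at 0.31, 0.15 and 0.16 FPKM in Scramble. It was at 0, 0.95 and 0.16 FPKM in Si-FIBP#1 cells and at 1.01, 0.67 and 0.6 FPKM in Si-FIBP#2 cells, so its values overlapped between Scramble and Si-FIBP#1 but not between Scramble and Si-FIBP#2. The spanning transcript held a mean of 99.26% of the STC1 FPKM in Scramble (SD 0.274, n = 3) and 99.73% in the depleted samples (SD 0.244, n = 6). The share contains the STC1 level that the gene was picked for, so it is given as a description with no test. The shorter transcript itself was not lower on average in the depleted cells, and it rested on an estimated 4.9 to 9.8 fragments per Scramble sample.

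STC2 showed no such rise. The gene (ENSG00000113739) spans positions 173314713 to 173329503 of chromosome 5 in GRCh38, also on the minus strand. Its sum was 6.15, 7.77 and 5.98 FPKM in Scramble, 7.73, 6.05 and 6.33 FPKM in Si-FIBP#1 cells, and 7.05, 6.97 and 6.45 FPKM in Si-FIBP#2 cells. The lowest and the highest of the 9 values were both in Scramble, and all 3 groups overlapped. The group means were 6.63 ± 0.988, 6.70 ± 0.900 and 6.82 ± 0.326 FPKM (SD, n = 3).

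No difference in STC2 was detected in any of the 3 comparisons. The log2 difference was 0.01 for Si-FIBP#1 against Scramble (95% interval -0.24 to 0.27; limma, adjusted p = 0.93). It was 0.04 for Si-FIBP#2 against Scramble (95% interval -0.21 to 0.30; limma, adjusted p = 0.784) and 0.03 for Si-FIBP#2 against Si-FIBP#1 (95% interval -0.23 to 0.28; limma, adjusted p = 0.903). The standard error was 0.11 in each, and the intervals did not reach the log2 difference of 1 that a call required. In order of the smaller rise, STC2 was 7269th of 14985, between FNBP1, whose smaller rise was also 0.01, and RWDD4. By mean FPKM it ranked 8902nd in Scramble, 9035th with Si-FIBP#1 and 9135th in Si-FIBP#2 cells.

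The STC2 sum was made of unlike parts. The transcript of 5353 nt that spans the gene, ENST00000265087, was at 3.93, 3.88 and 3.41 FPKM in Scramble, 3.77, 3.08 and 3.86 FPKM in Si-FIBP#1 cells and 3.63, 4.06 and 4.05 FPKM in Si-FIBP#2 cells. The retained-intron transcript ENST00000519511, of 582 nt and 2 exons, was at 1.26, 3.24 and 2.27 FPKM, then 3.47, 2.68 and 2.47 FPKM, then 3.19, 2.91 and 1.75 FPKM in the same order. For both transcripts the 3 groups overlapped. The protein-coding ENST00000520648, of 616 nt, reached at most 0.96 FPKM and was listed at 0 in 2 samples. ENST00000518455 and ENST00000520593 were listed at 0 in all 9 samples.

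Because FPKM divides by length, a few fragments weigh heavily in the short transcripts. The spanning STC2 transcript held 48.8% to 63.9% of the gene's FPKM, but an estimated 94.0% to 96.8% of its fragments. The retained-intron transcript rested on an estimated 7.7 to 25.3 fragments per sample, and the whole gene on 375 to 490. The share of the spanning transcript in FPKM was 57.0% in Scramble and 55.5% in the depleted samples, and no difference was detected (exact permutation test, two-sided, p = 0.774). The test pooled the siRNAs, whose means of 53.55% for Si-FIBP#1 and 57.51% for Si-FIBP#2 lay on either side of Scramble, so it does not address each siRNA. With the spanning transcript alone, an alternative chosen after seeing the data, the log2 differences of STC2 were -0.06 for Si-FIBP#1 and 0.05 for Si-FIBP#2 against Scramble (limma, adjusted p = 0.688 and 0.704). The same alternative left the differences of STC1 at 2.06 and 3.35.

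**Figure D2:**
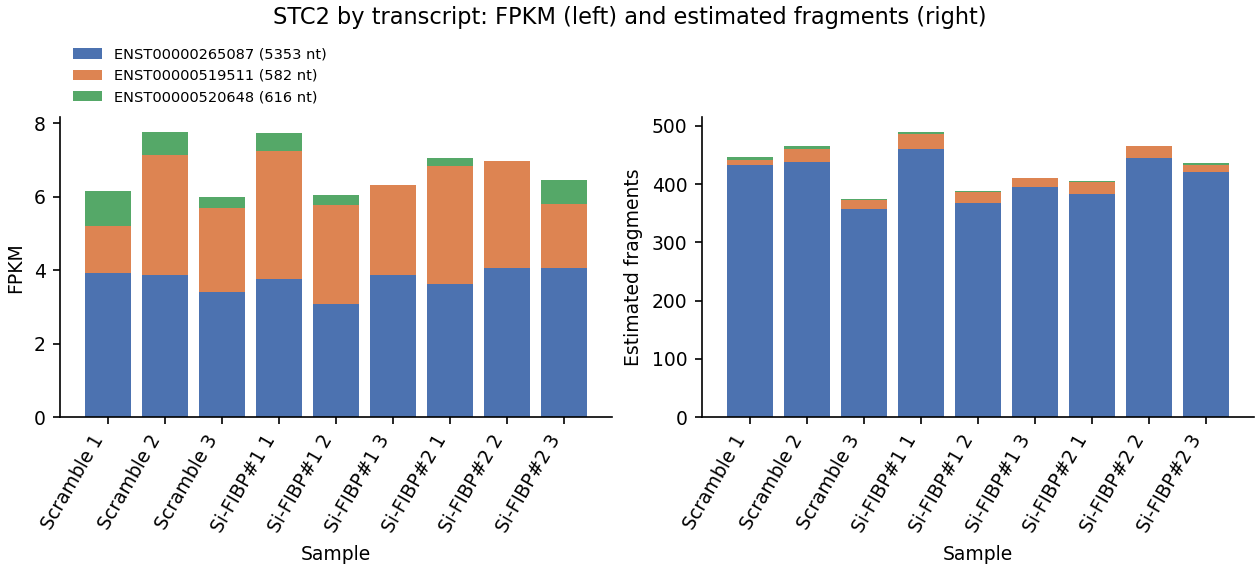
STC2 in each of the 9 samples, stacked by transcript, in FPKM (left) and in estimated fragments (right). The spanning transcript fills 48.8% to 63.9% of the bars in FPKM and 94.0% to 96.8% of those in fragments, and the 3 groups overlap in both panels.

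The ratio of STC1 to STC2 in FPKM, which are values per length, followed STC1. It was 3.36 to 4.77 in Scramble, 11.99 to 22.42 with Si-FIBP#1 and 38.2 to 48.3 in Si-FIBP#2 cells, with means of 4.23 ± 0.760, 18.3 ± 5.55 and 42.5 ± 5.22 (SD, n = 3). STC1 was the more abundant of the pair in all 9 samples.

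The genes whose pattern over the 9 samples was most like that of STC1 were chosen for that likeness, so their graded group means and the size of their rises follow from the choice and are described without a test. By Pearson correlation on the log2(FPKM + 1) scale, among 1256 other tested genes whose group means spanned at least 1, these were ELOVL4, an elongase of very long fatty acids (r = 0.995), SNN, which encodes stannin (r = 0.994), GABARAPL1, an ATG8-family protein of autophagosomes (r = 0.990), CTSL, the lysosomal protease cathepsin L (r = 0.990), and TRAPPC6A, a subunit of the TRAPP trafficking complex (r = 0.990). The points share their libraries and the 3 group levels, so the correlations are a description too. CTSL was at 50.38, 52.54 and 49.32 FPKM in Scramble, 85.11, 103.14 and 93.92 FPKM in Si-FIBP#1 cells and 113.6, 130.11 and 122.47 FPKM in Si-FIBP#2 cells. As for STC1, the 3 groups of CTSL did not overlap. The log2 rises of the 5 genes with Si-FIBP#2 were 1.01 to 1.46, below the 3.34 of STC1. The same limit on group means left out genes as flat as STC2, so the genes most like STC2 were not sought. The 5 highest correlations with STC2 within this limit were 0.575 to 0.741. They were with AL157893.1, AC103591.3, AL133153.1, BRICD5 and HDHD5-AS1, most of them listed at 0 in some samples.

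**Figure D3:**
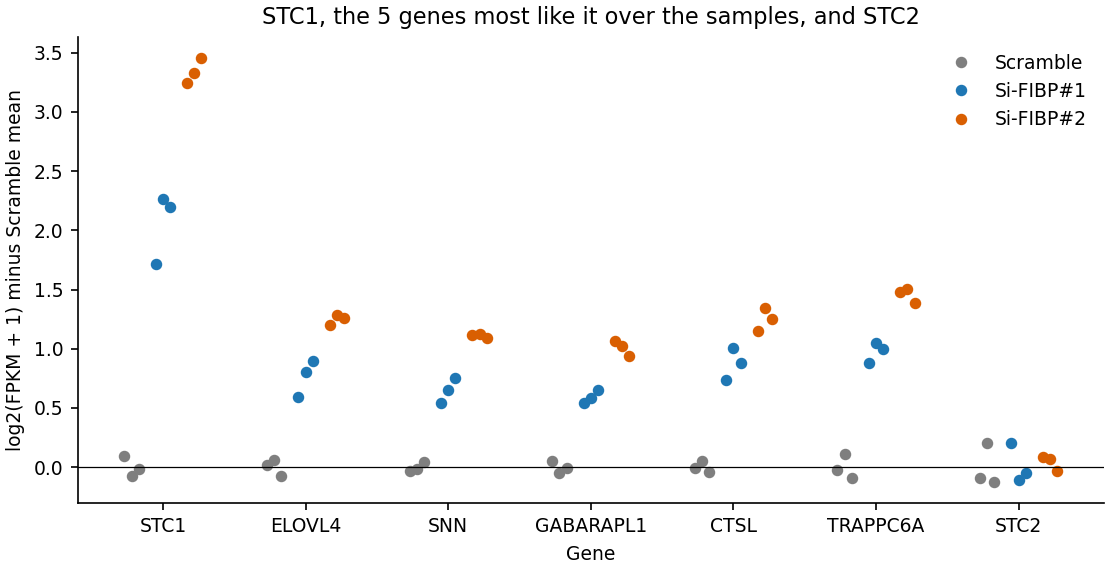
Difference of log2(FPKM + 1) from the Scramble mean, with 1 point per sample, for STC1, the 5 genes with the highest correlation with it, and STC2. The genes like STC1 step up in the same order but reach 1.01 to 1.46 in Si-FIBP#2 cells, against 3.34 for STC1, and the points of STC2 stay around 0.

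The partners of stanniocalcins in IGF signalling were scarce in these cells. PAPPA, the gene of the inhibited protease PAPP-A, was at 0.06 to 0.29 FPKM and PAPPA2 at 0 to 0.05 FPKM in all 9 samples. IGFBP5, a PAPP-A substrate, reached at most 0.01 FPKM, and FAM20C, the kinase of secreted proteins, at most 0.07 FPKM. None of these 4 genes passed the filter of 1 FPKM in 3 samples. IGFBP4, the best known PAPP-A substrate, was at 0.82, 0.8 and 0.87 FPKM in Scramble, 1.19, 1.55 and 1.29 FPKM in Si-FIBP#1 cells and 1.3, 2.28 and 1.38 FPKM in Si-FIBP#2 cells. All 6 depleted samples lay above the controls, with log2 differences of 0.35 and 0.52. IGFBP4 passed the filter only through the depleted cells, where it was higher, so no test is drawn from it.

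Of the 16 genes of an IGF axis list, 8 were tested. IGFBP3, the main carrier of circulating IGF, was at 1.18 ± 0.1498 FPKM in Scramble and at 0.0867 ± 0.0306 and 0.0867 ± 0.0404 FPKM in the depleted cells (SD, n = 3), with a ratio of means of 0.0732 for each siRNA. IGFBP3 passed the filter only through Scramble, where it was high, and no longer passed it once any 1 Scramble sample was left out, so no test is drawn from it. IGF2R, the receptor that clears IGF2, rose from 29.1 ± 1.20 to 60.9 ± 1.03 FPKM in Si-FIBP#1 cells, a log2 difference of 1.04 (limma, adjusted p = 0.000112). With Si-FIBP#2 the log2 difference of IGF2R was 0.73, under the 2-fold call. The rise of IGF2R with Si-FIBP#1 was 0.94 and not called when samples were scaled by their median ratio, and 0.97 and not called with annotated transcripts alone. IGF2R was thus 1 of 8 tested genes called higher in Si-FIBP#1 cells, beside 2.55% of all tested genes, and none was in Si-FIBP#2 cells, beside 2.92%. IGFBP3 was the 1 counted as lower with each siRNA, beside 3.11% and 2.13%. By the adjusted p alone, Si-FIBP#1 cells had 2 higher and 2 lower, beside 27.8% and 19.9%. Si-FIBP#2 cells had 3 and 2, beside 31.1% and 17.7%, and these counts include IGFBP3 and IGFBP4. IGFBP6 differed by -0.65 and -0.64 (limma, adjusted p = 0.000609 and 0.000657). The median of the 8 was 0.17 with each siRNA, against 0.07 and 0.11 for all tested genes.

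Of 30 genes of calcium and phosphate handling, 22 were tested, and in Si-FIBP#1 cells 1 was called higher and 2 lower. In Si-FIBP#2 cells 1 was called higher and none lower. Scaled by their median ratio, Si-FIBP#1 cells had 0 called higher and 2 lower, and Si-FIBP#2 cells 0 and 1. With this scaling, 296 of all 14934 tested genes were called higher and 564 lower in Si-FIBP#1 cells, and 291 and 481 in Si-FIBP#2 cells. Without it, Si-FIBP#1 cells had 2.55% of all tested genes called higher and 3.11% lower. Si-FIBP#2 cells had 2.92% and 2.13%. By the adjusted p alone, 7 of the 22 were higher and 6 lower in Si-FIBP#1 cells, where 27.8% and 19.9% of all tested genes were. In Si-FIBP#2 cells 8 were higher and 3 lower, beside 31.1% and 17.7% of all tested genes. SLC20A1, a phosphate importer, fell by 1.12 with Si-FIBP#1, and ATP2A2, the calcium pump of the endoplasmic reticulum, by 1.07 (limma, adjusted p = 7.79e-05 and 6.01e-06). ORAI3, a calcium channel opened by store depletion, rose by 1.09 with Si-FIBP#1 (limma, adjusted p = 2.02e-05), but by 0.99 without Scramble replicate 3 and by 0.9986 when samples were scaled by their median ratio, both under the call. With Si-FIBP#2 the differences were -0.54, -0.94 and 0.91 in the same order, none of them over 2-fold. ATP2A2 was called there, however, at -1.09 when samples were scaled by their median ratio, at -1.12 with annotated transcripts alone and at -1.0045 without Si-FIBP#2 replicate 1. PTHLH, the parathyroid hormone-related protein, was at 3.06, 3.3 and 2.38 FPKM in Scramble, 2.31, 3.45 and 2.57 FPKM in Si-FIBP#1 cells and 7.39, 6.23 and 8.04 FPKM in Si-FIBP#2 cells. The Si-FIBP#2 samples lay above all others, while Scramble and Si-FIBP#1 overlapped. PTHLH differed by 1.13 between the siRNAs (limma, adjusted p = 0.00148) and by 1.07 between Si-FIBP#2 and Scramble (limma, adjusted p = 0.000268), and the second was 0.97 without Scramble replicate 3 and 0.95 when samples were scaled by their median ratio, both under the call. STIM1, the store calcium sensor, differed by 0.12 and 0.31 from Scramble (limma, adjusted p = 0.271 and 0.0145). The median of the 22 genes was 0.10 with Si-FIBP#1 and 0.14 in Si-FIBP#2 cells, close to that of all tested genes.

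Among other targets of the hypoxia response, more were lower than higher by the adjusted p alone. Of 29 known hypoxia targets 26 were tested, and 1 was called lower and none higher with Si-FIBP#1. With Si-FIBP#2, 1 was called in each direction. Scaled by their median ratio, the samples gave none higher and 1 lower in Si-FIBP#1 cells and none higher and 2 lower in Si-FIBP#2 cells. With this scaling, 296 of all 14934 tested genes were called higher and 564 lower in Si-FIBP#1 cells, and 291 and 481 in Si-FIBP#2 cells. Without it, the shares over all tested genes were 2.55% higher and 3.11% lower in Si-FIBP#1 cells. The shares were 2.92% and 2.13% in Si-FIBP#2 cells. By the adjusted p alone, Si-FIBP#1 cells had 5 of the 26 targets higher and 9 lower, beside 27.8% and 19.9% of all tested genes. Si-FIBP#2 cells had 6 and 11, beside 31.1% and 17.7%. The targets lower with both siRNAs by the adjusted p alone differed by -0.24 to -1.14. They were SLC2A1, HK2, LDHA, PGK1, ENO1, ALDOA and PFKFB3, all of glucose uptake or glycolysis, with ADM and BNIP3. VEGFA, P4HA1, P4HA2 and PLOD2 were higher with both, by 0.22 to 0.73, so the targets did not move in 1 direction. LDHA, lactate dehydrogenase A, fell by 1.14 with Si-FIBP#1, and PGK1, another glycolytic enzyme, fell by 1.03 in Si-FIBP#2 cells (limma, adjusted p = 3.37e-06 and 1.13e-06). The PGK1 difference was -0.98, under the call, without Si-FIBP#2 replicate 3 and with annotated transcripts alone. LDHA differed by -0.98 in Si-FIBP#2 cells, and this became a call, at -1.0002 or -1.07, without Scramble replicate 2 or Si-FIBP#2 replicate 1, and at -1.13 when samples were scaled by their median ratio. ANGPTL4, a lipoprotein lipase inhibitor, rose by 1.01 in Si-FIBP#2 cells (limma, adjusted p = 7.31e-05), just past the 2-fold limit. It was 0.92, 0.95 and 0.95, under the call, without Scramble replicate 3, Si-FIBP#2 replicate 1 and Si-FIBP#2 replicate 3, and 0.86 when samples were scaled by their median ratio. With annotated transcripts alone it was 0.9982, so that no target was then called in Si-FIBP#2 cells. The medians of the 26 genes were -0.04 and -0.05, against 0.07 and 0.11 for all tested genes.

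Of 7 oxygen-sensing factors 6 were tested and none was called in any comparison, while 3 were higher by the adjusted p alone (limma) with each siRNA, or 2 after scaling by the median ratio. Before that scaling, 27.8% of all tested genes were higher by the adjusted p alone in Si-FIBP#1 cells and 31.1% in Si-FIBP#2 cells. HIF1A, the oxygen-regulated subunit itself, was at 40.7 ± 1.06 FPKM in Scramble, 42.8 ± 1.17 in Si-FIBP#1 cells and 43.9 ± 1.78 in Si-FIBP#2 cells (SD, n = 3). Its log2 differences were 0.07 and 0.11 (limma, adjusted p = 0.285 and 0.113). EPAS1, which encodes HIF-2 alpha, was low in each group, at 1.28 ± 0.0794, 1.56 ± 0.159 and 1.57 ± 0.167 FPKM. Among the others, ARNT, the constant partner of HIF1A, differed by 0.55 and 0.62, and HIF1AN, which blocks HIF1A in oxygen, by 0.55 and 0.54 (limma, adjusted p at most 0.00277 for these 4 values).

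On a list that joins genes of ATF4 and of the unfolded protein response, among them known regulators of STC2, more were lower than higher. Of 31 genes 30 were tested, and Si-FIBP#1 cells had 5 called lower and none higher, beside 3.11% and 2.55% of all tested genes. In Si-FIBP#2 cells 3 were called lower and 2 higher, beside 2.13% and 2.92%. By the adjusted p alone, Si-FIBP#1 cells had 15 of the 30 lower and 5 higher, beside 19.9% and 27.8% of all tested genes. Si-FIBP#2 cells had 9 and 4, beside 17.7% and 31.1%. ATF4 was at 124.89, 128.72 and 129.73 FPKM in Scramble, 76.78, 72.62 and 77.48 FPKM in Si-FIBP#1 cells and 91.31, 83.44 and 91.02 FPKM in Si-FIBP#2 cells. The 3 groups of ATF4 did not overlap, and its log2 differences from Scramble were -0.75 and -0.52 (limma, adjusted p = 3.95e-06 and 3.73e-05), under the 2-fold call.

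The called genes of this list were ASNS, PHGDH, SLC7A5, MTHFD2, GDF15, DNAJB9 and VLDLR. PHGDH, the first enzyme of serine synthesis, fell by 1.49 and 1.51. SLC7A5, a leucine transporter, fell by 1.43 and 1.30, and ASNS, asparagine synthetase, by 1.37 and 1.22 (limma, adjusted p at most 5.55e-06 for these 6 values). MTHFD2, of mitochondrial folate metabolism, fell by 1.01 with Si-FIBP#1 (limma, adjusted p = 2.59e-06), and its difference in Si-FIBP#2 cells was -0.65. The fall of MTHFD2 was 0.99 to 1.00 and under the call with annotated transcripts alone and without Scramble replicate 2, Scramble replicate 3 or Si-FIBP#1 replicate 2. GDF15, a stress cytokine, was at 2.26 ± 0.390 FPKM in Scramble, 0.507 ± 0.0306 FPKM in Si-FIBP#1 cells and 1.94 ± 0.638 FPKM in Si-FIBP#2 cells (SD, n = 3). It passed the filter only through the groups other than Si-FIBP#1, so no test is drawn from it, and it is 1 of the 5 genes counted as lower there. The 2 genes called higher with Si-FIBP#2 were DNAJB9, a chaperone of the endoplasmic reticulum, with a rise of 1.14, and VLDLR, a lipoprotein receptor, with a rise of 1.15 (limma, adjusted p = 3.48e-05 and 3.8e-06). With Si-FIBP#1 DNAJB9 stood at 0.97 and VLDLR at 0.33 (limma, adjusted p = 9.08e-05 and 0.005), and DNAJB9 was called there, at 1.05 to 1.06, without Si-FIBP#1 replicate 1 or with a pseudocount of 0.1. The ratio of means of DNAJB9 was 2.11 with Si-FIBP#1, although its difference on the log2(FPKM + 1) scale was under the call. HSPA5, the central chaperone of the unfolded protein response, differed by 0.15 and 0.14 (limma, adjusted p = 0.147 and 0.173). Of the other unfolded protein genes, PDIA4 differed by 0.41 and 0.20 (limma, adjusted p = 0.000544 and 0.0251). XBP1 differed by -0.33 and -0.135 (limma, adjusted p = 0.0112 and 0.226). No difference was detected for HERPUD1, SDF2L1, HSP90B1, EIF2AK3 and ERN1 (limma, adjusted p at least 0.151). Apart from XBP1 with Si-FIBP#1, none of these genes was lower by the adjusted p alone. The medians of the 30 genes were -0.25 and -0.12, below those of all tested genes, and they were -0.35 and -0.26 when samples were scaled by their median ratio.

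**Figure D4:**
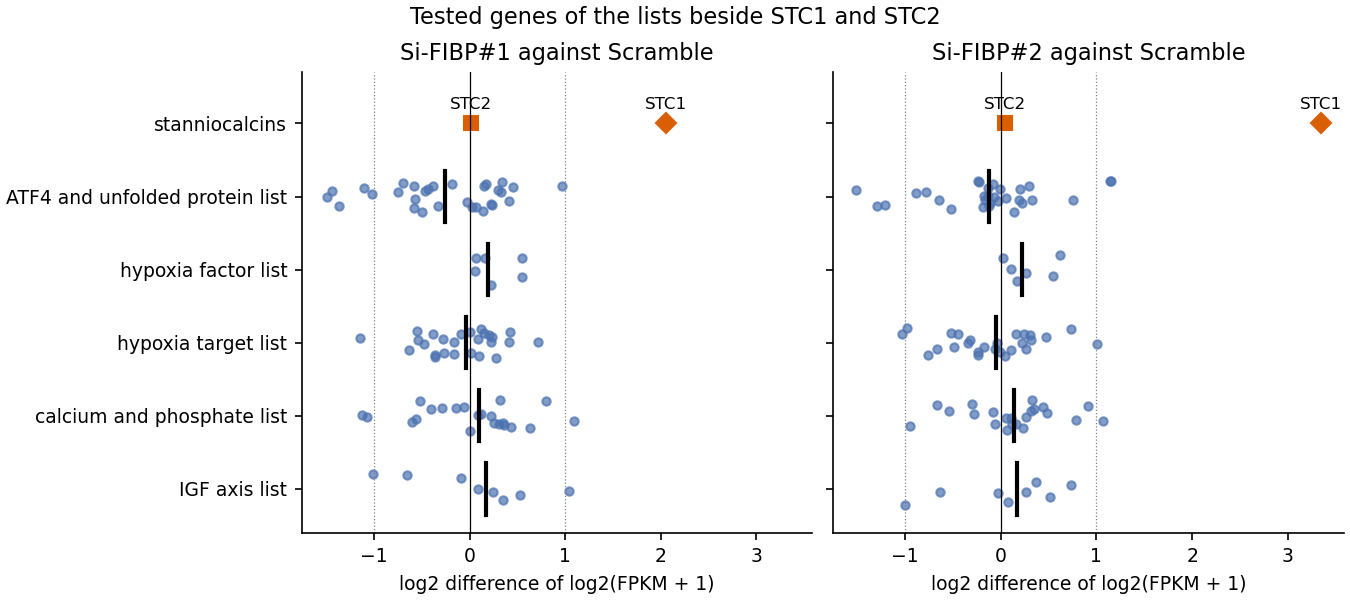
Differences on the log2(FPKM + 1) scale for each tested gene of the 5 lists (points, with the list median as a black bar) beside STC1 (diamond) and STC2 (square), for Si-FIBP#1 (left) and Si-FIBP#2 (right) against Scramble. Dotted lines mark 2-fold. STC1 was picked for its rise, so its place to the right of every listed gene, at 2.06 and 3.34, largely follows from that choice.

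STC1 was picked for its rise, so the smaller differences of the protein-coding genes near it largely follow from that choice. On the left of STC1, by coordinate, NKX2-6 (gap 135.3 kb) and SLC25A37 (266.5 kb) are described, and on its right ADAM28 (439.2 kb). NKX2-6, a homeobox gene, was at 7.8, 7.18 and 4.95 FPKM in Scramble, 9.56, 9.9 and 9.8 FPKM in Si-FIBP#1 cells and 11.61, 15.72 and 14.71 FPKM in Si-FIBP#2 cells, so its groups did not overlap. Its log2 differences were 0.51 and 0.98 (limma, adjusted p = 0.0185 and 0.000542), under the 2-fold call on this scale, and its ratios of means were 1.47 and 2.11. The second difference was called at 1.004 when scaled to TPM, at 1.08 with a pseudocount of 0.1 and at 1.04 to 1.10 without Scramble replicate 1, Scramble replicate 2 or Si-FIBP#2 replicate 1. Between the siRNAs NKX2-6 differed by 0.47, and no difference was detected (limma, adjusted p = 0.0632). ADAM28, a metalloprotease, differed by 0.54 and 0.58 on the log2 scale, with ratios of means of 2.27 and 2.33. ADAM28 was below 1 FPKM in every Scramble sample and passed the filter only through the depleted cells, so no test is drawn from it. SLC25A37, the mitochondrial iron importer, differed by 0.04 and -0.03 (limma, adjusted p = 0.7 and 0.829). ADAMDEC1 and ADAM7, the next genes on the right, were listed at 0 in all samples.

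A neighbour of STC2 rose while STC2 itself showed no detected change. CREBRF, a regulator of the unfolded protein response whose gap to STC2 is 175.4 kb, was at 4.64, 4.5 and 4.14 FPKM in Scramble, 11.94, 14.61 and 14.28 FPKM in Si-FIBP#1 cells and 10.5, 13.62 and 11.2 FPKM in Si-FIBP#2 cells. All 6 depleted samples lay above the controls, while the siRNA groups overlapped. CREBRF was called with both siRNAs, with log2 differences of 1.42 and 1.23 (limma, adjusted p = 7.8e-06 and 2.13e-05). BNIP1, between CREBRF and STC2, differed by 0.15 and 0.40 (limma, adjusted p = 0.0849 and 0.00062). BOD1 differed by -0.04 and 0.07 (limma, adjusted p = 0.613 and 0.362), and CPEB4 by 0.10 and 0.43 (limma, adjusted p = 0.519 and 0.0142). None of these differences was over 2-fold. NKX2-5, the closest gene at 79.4 kb, was at 0.76 to 1.28 FPKM and C5orf47 at 0 to 0.02 FPKM, and neither passed the filter.

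**Figure D5:**
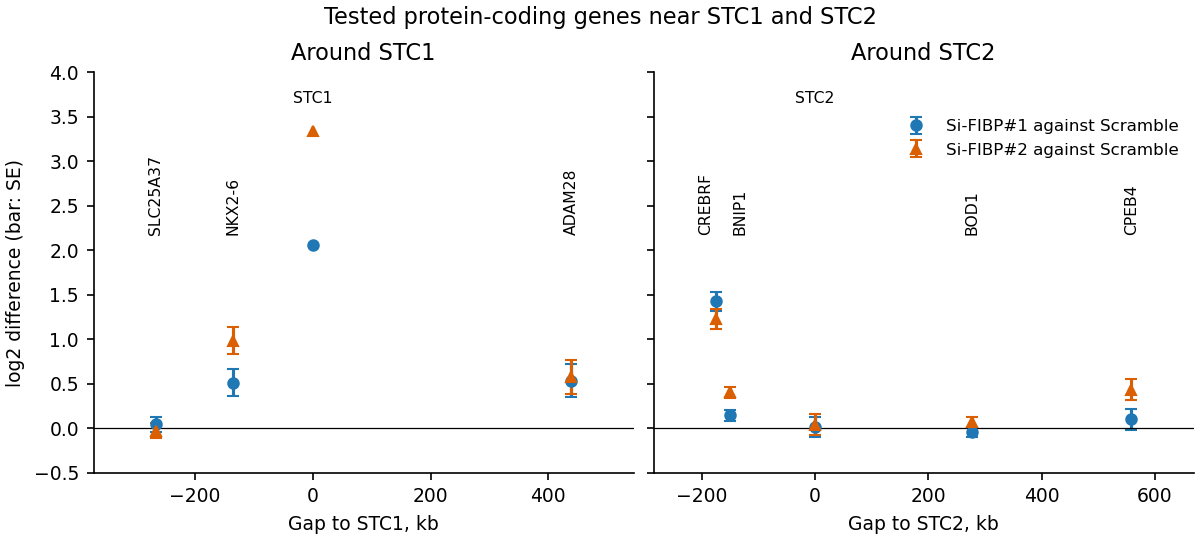
Log2 differences from Scramble of tested protein-coding genes nearby, by their gap in kb to STC1 (left) and STC2 (right), with bars for the SE (none for STC1, which was not tested). STC1, at 2.06 and 3.34, was picked for its rise, so its place above the genes near it largely follows from that choice. CREBRF, at 1.42 and 1.23, stands above STC2.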

How the data were processed

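RNA sequencing data of 9 H1299 samples were analysed as deposited. The authors provided FPKM values per transcript, to 2 decimals, made with HISAT2 and StringTie per the submitters' processing notes. Versions, genome build and strand setting were not given in the sources used here. The transcripts were matched by identifier to GENCODE 29 (GRCh38), whose length differed from the deposited one for ENST00000290271 (3883 against 3868 nt). Depth was estimated from the step of 1 fragment in low FPKM values of 8028 genes with 1 transcript of 800 to 2000 nt, and fragment numbers are such estimates.

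FPKM values were summed over the transcripts of a gene. The 14985 genes that reached 1 FPKM in 3 or more samples were fitted on log2(FPKM + 1) in 1 model of 9 samples with limma 3.58.1 (R 4.3.3, trend), with Benjamini-Hochberg adjustment over all of them. A call required an adjusted p below 0.05 and more than 2-fold, the study's thresholds, with the fold taken on the log2(FPKM + 1) scale. Log2 differences understate changes of low genes. Tested on simulated data for Si-FIBP#1 against Scramble, the fit recovered 98% of 200 genes changed by 1.5 among 14985, with 0 false calls. The simulated noise was normal and no low gene was changed. These figures therefore do not carry over to low genes or to data in which many genes differ. The STC2 transcript share was compared by exact permutation, with both siRNA groups pooled.

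The members, the lists and the tests were chosen with earlier results of these data known. Named genes were the stanniocalcins, FIBP and fixed partners, up to 5 called genes per list with the largest mean difference (or the 2 largest differences where fewer than 2 were called), the 5 most correlated genes, the neighbours in the order of rise and the nearest 3 protein-coding genes per side. Called list genes beyond these were named after their values were seen, and so were HSPA5, IGFBP6 and any other list gene outside these rules. Alternatives covered scaling, pseudocount, filter, transcripts, samples, trend and block. Some items that these rules would name are not reported here.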

Additional observations from a re-analysis of the deposited data

Results flagged for a closer look

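Between the siRNAs, 1 gene of the 5 lists, which held 8, 22, 26, 6 and 30 tested genes, passed both the adjusted p and the 2-fold limit. Of all tested genes, 0.267% were called higher and 0.294% lower with Si-FIBP#2. PTHLH was higher with Si-FIBP#2 by 1.13 on the log2 scale (limma, adjusted p = 0.00148), in all 3 against all 3 samples. STC1 also differed between the siRNAs, by 1.29, but it was chosen for this difference and was not tested. By the adjusted p alone, 0, 5, 1, 1 and 7 genes of the lists were higher, and 1, 0, 3, 1 and 3 lower, in the same order. Of all tested genes 9.58% were higher and 5.8% lower. VLDLR (0.81), ANGPTL4 (0.92) and PGK1 (-0.49) had smaller values than PTHLH (limma, adjusted p = 0.00033, 0.000965 and 0.00066). GDF15, counted among the 7 above, differed by 0.94. It had a mean of 0.507 FPKM in Si-FIBP#1 cells and passed the filter only through the other groups, so no test is drawn from it. ANGPTL4 passed the 2-fold limit too, at 1.03, without Si-FIBP#2 replicate 2.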

How the results depend on the processing

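The rises of STC1 kept their direction under every alternative run. This follows from the choice of STC1 and from groups that did not overlap, so it is no support for the rises. Scaling by the median ratio gave 3.20 in place of 3.34 for Si-FIBP#2 against Scramble, a shift larger than the SD of log2 values in either group but smaller than the range of the Si-FIBP#2 samples, beside a shift of the median of all tested genes from 0.11 to -0.02. STC2 stayed without a call under every alternative, but its sign was not stable, because its differences lay near 0. Scaling by the median ratio gave -0.0746 for STC2 with Si-FIBP#1 and -0.0885 in Si-FIBP#2 cells, and -0.0139 between the siRNAs. With Si-FIBP#1, scaling to TPM gave -0.0262 and the spanning transcript alone gave -0.0552. Leaving out each sample in turn gave -0.0789 to 0.119 with Si-FIBP#1, -0.0183 to 0.146 in Si-FIBP#2 cells and -0.033 to 0.121 between the siRNAs. The difference in the STC1 transcript share then ranged from 0.311 to 0.555 percentage points and that of STC2 from -4.93 to 2.05.

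Any pairing of samples by the replicate numbers of the labels was weak. Correlations of same-numbered samples were between -0.06 and 0.10, and those of other samples between -0.14 and 0.05. The highest values were of same-numbered samples. With the replicate block, STC2 differed by 0.01, 0.04 and 0.03 (limma, adjusted p = 0.93, 0.786 and 0.901), and Si-FIBP#1 had 384 genes called higher and 469 lower in place of 382 and 466. The block also moved AC010149.1, AC125257.2 and HDHD5-AS1 past the call limits in some comparisons. They were listed at 0 in most or all Scramble samples and passed the filter only through the depleted cells, so no test is drawn from them. A pseudocount of 0.1 raised the calls of Si-FIBP#1 to 849 higher and 649 lower, those of Si-FIBP#2 to 953 and 458, from 438 and 319, and those between the siRNAs to 105 and 67, from 40 and 44. Scaling by the median ratio gave 296 and 564, 291 and 481, and 33 and 52. Without Si-FIBP#2 replicate 2, 71 and 57 genes were called between the siRNAs. Of the list genes, 1 was called between the siRNAs (PTHLH), and 2 were without Si-FIBP#2 replicate 2 (with ANGPTL4). GDF15 passed both limits without Si-FIBP#2 replicate 3, after scaling to TPM or at the pseudocount of 0.1, but no test is drawn from it. Depth limits the short transcripts of both STC1 and STC2, which rested on few estimated fragments.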
